A study of Mus musculus with 17 samples.

Results

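Expression of 35 genes of glycolysis and pyruvate use was described in splenic cDC1s and cDC2s that had been cultured with medium of live or dying tumor cells. The genes were taken by name from a list. The list held 3 glucose transporters, 3 hexokinases, 7 enzymes of upper glycolysis, 4 enzymes that set the level of fructose 2,6-bisphosphate, 6 enzymes of lower glycolysis, 4 genes of lactate and monocarboxylate handling and 8 genes of mitochondrial pyruvate entry. All 35 were found among the 31091 gene identifiers of the count table.

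Bulk sequencing of polyadenylated RNA had been done on 17 samples of sorted cells in 6 groups, to compare how the cell types respond to apoptotic and to necroptotic tumor cells. The cDCs came from pooled spleens of female C57BL/6JRj mice, 8 weeks old when purchased, that carried B16-FLT3L tumors, which are melanoma cells made to express a growth factor of dendritic cells. CD11c+ splenocytes were cultured for 6 h with medium of live wildtype TC-1 cells (WT medium), with the medium and debris of apoptotic TC-1-iBimS cells (BimS debris) or with those of necroptotic TC-1-iRIPK3 cells (RIPK3 debris), after which cDC1s and cDC2s were sorted. TC-1 is a C57BL/6-derived lung epithelial tumor line with the E6 and E7 genes of HPV16 and H-ras, and iBimS and iRIPK3 are sublines of it, each grown from a single cell, in which the inducer cumate switches on BimS or an oligomerizing RIPK3. Cumate was given to the WT cells too, but these are not a cloned subline. The medium was added whole, with the soluble contents left by live or by dying cells. Clone, cell death and soluble contents of the medium therefore cannot be told apart. By the study's outline of such cultures, GM-CSF was added to all of them for survival of the cells. There were 3 samples of cDC1s for each medium, 3 of cDC2s with WT medium, 3 of cDC2s with BimS debris and 2 of cDC2s with RIPK3 debris.

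Glycolysis splits glucose into pyruvate in the cytosol. Pyruvate is then either reduced to lactate and exported or carried into mitochondria, where the pyruvate dehydrogenase complex feeds it into the citric acid cycle. Dendritic cells that are activated through pattern recognition receptors are known to increase glycolysis, and several of its genes are known targets of the transcription factor HIF-1.

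Each library held between 16095159 and 21645289 counts on genes (median 18986002). Levels are given as CPM, counts per library of 1 M reads after TMM normalization over all samples, and levels of different genes were compared per length as TPM. Changes are log2 fold changes from the quasi-likelihood test of edgeR, fitted separately in the 9 cDC1 and the 8 cDC2 samples, and a gene was called at a Benjamini-Hochberg adjusted p under 0.05 over all genes tested. The sorted cells carried their own markers, since 10 cDC1 markers summed to 1508 to 1819 CPM in cDC1 samples and to 109 to 145 CPM in cDC2 samples, and 9 cDC2 markers to 470 to 569 CPM in cDC2 samples and to 140 to 202 CPM in cDC1 samples. In cDC1s the cDC2 markers summed to 194 to 202 CPM with WT medium, 160 to 178 CPM with BimS debris and 140 to 169 CPM with RIPK3 debris. Single markers moved with debris, given here for BimS and then RIPK3 debris. In cDC1s Irf8 (-0.75 and -0.82), Itgae (-0.45 and -0.84) and Wdfy4 (-0.18 and -0.41) fell and Xcr1 (0.44 and 0.57) and Clec9a (0.26 and 0.24) rose with either, and Tlr3 rose with BimS debris (0.62) and Cd8a with RIPK3 debris (0.55). Of the cDC2 markers, Notch2 fell in cDC1s with either (-0.25 and -0.34). In cDC2s Irf4 fell (-1.16 and -1.52) and Clec4a4 rose (0.48 and 0.63) with either, and Clec10a (-0.98) and Cd209a (-0.50) fell with RIPK3 debris. The part of these shifts in the results was not tested. Nothing in the labels says whether the replicates came from separate animals, so that p-values measure the spread between these samples, which may be technical. In bulk samples, fewer cells of a type and less RNA per cell cannot be told apart.

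The start sites of 4 members are shown first, picked because they changed and hold ACGTG, a known binding core of HIF-1. RefSeq promoter windows of 300 bases, from 250 before to 50 after a start of GRCm38.p6, were at hand for 34 of the 35 members, the exception being Slc2a3, and were placed on GRCm39 by exact match. ACGTG was searched on both strands and was found in 17 of 34 windows (50%), against 19.6% of all 32851 windows. The E-box CACGTG, which contains the core on both strands, stood in 4 of 34 windows (11.8%, those of Ldha, Pdk2, Pfkfb3 and Slc16a1) against 7.15% of all windows. The carbohydrate response element, a spaced pair of such boxes, was found in 0 of the 34 and in 0 of all windows when searched as exact boxes. Each member was searched in the window nearest its canonical start, whereas the shares of all windows took every window of the set. These shares are therefore not of like kind. A match describes letters and is not a bound site, and the part of HIF-1 in the changes was not tested. The windows of Pfkfb3 (chr2:11506852-11507151, minus strand, 516 bases from the start of the gene's canonical transcript), Hk2 (chr6:82751386-82751685, minus strand), Aldoa (chr7:126398377-126398676, minus strand) and Slc16a3 (chr11:120839643-120839942, plus strand, 352 bases from the canonical start) are written 5′ to 3′, with the core on either strand in capitals.
Pfkfb3: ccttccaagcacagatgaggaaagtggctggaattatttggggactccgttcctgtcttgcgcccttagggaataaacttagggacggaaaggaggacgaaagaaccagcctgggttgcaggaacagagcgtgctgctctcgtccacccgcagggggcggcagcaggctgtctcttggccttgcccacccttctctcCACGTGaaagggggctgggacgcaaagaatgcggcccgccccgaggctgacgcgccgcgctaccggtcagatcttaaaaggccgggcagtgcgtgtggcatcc
Hk2: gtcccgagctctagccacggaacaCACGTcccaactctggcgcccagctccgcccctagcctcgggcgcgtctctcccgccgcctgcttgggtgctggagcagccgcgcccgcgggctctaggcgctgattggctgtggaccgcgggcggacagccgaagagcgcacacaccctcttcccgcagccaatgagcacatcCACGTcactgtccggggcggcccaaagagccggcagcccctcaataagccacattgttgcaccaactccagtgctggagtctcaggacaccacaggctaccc
Aldoa: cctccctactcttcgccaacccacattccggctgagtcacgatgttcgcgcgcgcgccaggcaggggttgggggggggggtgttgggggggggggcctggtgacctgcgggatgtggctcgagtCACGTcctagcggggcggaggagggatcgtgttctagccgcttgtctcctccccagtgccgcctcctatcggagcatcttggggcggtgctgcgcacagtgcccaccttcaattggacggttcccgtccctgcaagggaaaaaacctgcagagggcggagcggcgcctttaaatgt
Slc16a3: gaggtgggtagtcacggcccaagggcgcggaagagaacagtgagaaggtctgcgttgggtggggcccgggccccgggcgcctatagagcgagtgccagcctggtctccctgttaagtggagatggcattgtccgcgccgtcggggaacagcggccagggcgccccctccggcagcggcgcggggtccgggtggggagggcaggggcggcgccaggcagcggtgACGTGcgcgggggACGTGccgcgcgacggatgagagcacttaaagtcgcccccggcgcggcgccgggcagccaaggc

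Debris was followed by higher levels of a group of glycolytic genes in both cell types. In cDC1s, BimS debris raised 11 of the 33 members tested and lowered 6 (background: 13.2% of all genes tested were called, 7.31% higher and 5.89% lower), and RIPK3 debris raised 9 and lowered 6 (background 16.5%, 8.34% higher and 8.19% lower). In cDC2s, BimS debris raised 6 of 34 members and lowered 1 (background 7.01%, 3.8% higher and 3.21% lower), and RIPK3 debris raised 7 and lowered 2 (background 7.21%, 3.93% higher and 3.28% lower). Slc2a1, Aldoa, Pgk1, Pkm and Slc16a3 passed the test as higher in each of these comparisons, with log2 fold changes between 0.23 and 0.90. With limma on log2 counts that were not scaled for depth (unscaled counts), Slc16a3 alone of these kept all its calls, while Slc2a1 and Pgk1 lost theirs in each comparison and Aldoa and Pkm lost theirs with RIPK3 debris in cDC2s. That fit also lost the calls of Hk1, Eno1, Ldha, Pdk2, Pdk3 and Pdhb with BimS debris and of Gpi1 and Gapdh with RIPK3 debris in cDC1s, and those of Pfkp, Gapdh and Pdha1 between the cell types with WT medium. Comparisons within a cell type share their WT samples, so their values are not independent. The median log2 fold change over the members tested was 0.01 and 0.05 in cDC1s with BimS and RIPK3 debris, where that of all genes was 0.00 and -0.01, and -0.06 and -0.00 in cDC2s, where that of all genes was -0.02 and -0.02. The median member thus hardly moved, since rises and falls stood side by side. A model with a block for the replicate number called more genes, namely 16 members with BimS debris (8 higher, 8 lower, background 21.3%) and 15 with RIPK3 debris (10 higher, 5 lower, background 21.4%) in cDC2s.

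**Figure D1:**
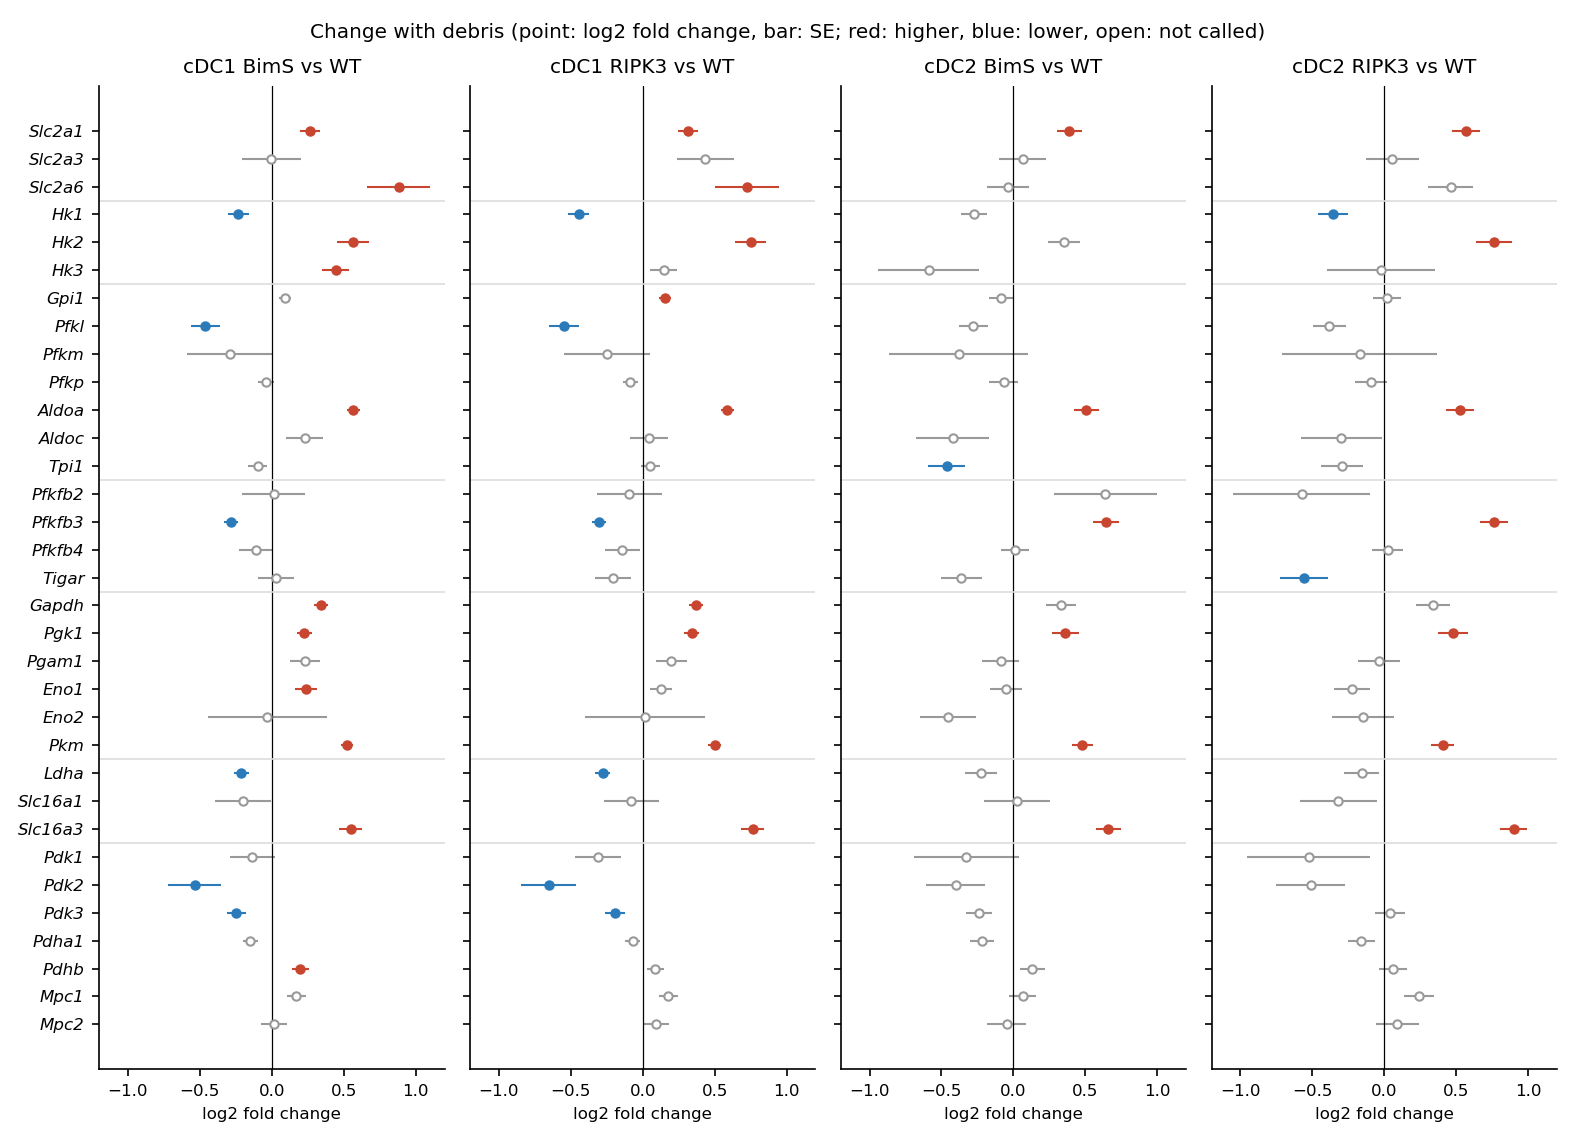
Log2 fold change (x axis) of 33 members (y axis, ordered by role) against WT medium in 4 comparisons, with the SE as a bar. Red points were called higher, blue points lower and open points were not called: Aldoa, Pgk1, Pkm, Slc16a3 and Slc2a1 are red in each panel, and Pfkfb3 is blue in cDC1s and red in cDC2s.

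The 35 genes together held a small and rising share of the counts. It was 0.338% ± 0.00705 (SD, n = 3) in cDC1s with WT medium, 0.373% ± 0.00214 with BimS debris and 0.370% ± 0.00700 with RIPK3 debris. In cDC2s it was 0.400% ± 0.0181 with WT medium, 0.460% ± 0.0164 with BimS debris and 0.465% ± 0.0105 (n = 2) with RIPK3 debris. In each cell type, every debris sample held a larger share than every WT sample. Summed over the members, 3200 to 3330 CPM in cDC1s with WT medium compared with 3742 to 3856 CPM with RIPK3 debris, and 3659 to 3978 CPM in cDC2s with 4681 to 4850 CPM. Aldoa and Pkm, singled out after their values were seen, carried most of the rise. In cDC1s they added 500.4 of 508 CPM with BimS debris and 507 of 533 CPM with RIPK3 debris, so that the mean sum of the other 33 members went from 2171 CPM to 2179 and 2197 CPM. In cDC2s they added 709 of 881 CPM and 658 of 939.8 CPM, and the other 33 went from 2089 CPM to 2261 and 2370 CPM.

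Glucose enters dendritic cells through facilitated transporters. Slc2a1 (ENSMUSG00000028645, chr4:118965908-118996365 of GRCm39), which encodes the widespread transporter GLUT1, stood at 27.2, 27.7 and 24.2 CPM in cDC1s with WT medium, at 32, 30.92 and 32.08 CPM with BimS debris and at 32.89, 33.85 and 31.97 CPM with RIPK3 debris. In cDC2s the levels were 49.7, 52.3 and 54.1 CPM with WT medium, 62.9, 70.7 and 70.8 CPM with BimS debris and 72.1 and 82.0 CPM with RIPK3 debris. All debris samples lay above the WT samples of their cell type. The rise was 0.27 (SE 0.070, adjusted p = 0.00709) and 0.32 (SE 0.071, adjusted p = 0.00101) in cDC1s and 0.39 (SE 0.088, adjusted p = 0.00838) and 0.57 (SE 0.098, adjusted p = 0.000601) in cDC2s, for BimS and RIPK3 debris. The BimS call was lost without cDC1 WT replicate 3 (0.21, adjusted p = 0.103) in cDC1s and without cDC2 BimS replicate 2 (0.36, adjusted p = 0.0548) in cDC2s. With limma on unscaled counts no Slc2a1 call held, at 0.23 and 0.20 in cDC1s (adjusted p = 0.28 and 0.295) and 0.32 and 0.39 in cDC2s (adjusted p = 0.208 and 0.102).

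Slc2a6 encodes GLUT6, a transporter found on internal membranes. It was measured at 2.36, 0.966 and 2.21 CPM in cDC1s with WT medium, at 3.73, 3.21 and 3.35 CPM with BimS debris and at 3.43, 2.94 and 2.88 CPM with RIPK3 debris. In cDC2s, its levels were 9.49, 13.1 and 12.1 CPM, then 10.1, 12.1 and 11.4 CPM, then 13.6 and 18.1 CPM. The rise in cDC1s, 0.88 with BimS debris and 0.73 with RIPK3 debris, leaned on the low level of 1 WT sample. Without cDC1 WT replicate 2 it was 0.59 (adjusted p = 0.0655) and 0.43 (adjusted p = 0.215), and the RIPK3 call was also lost without cDC1 RIPK3 replicate 1 (0.64, adjusted p = 0.0783). In cDC2s, RIPK3 debris gave 0.46, which was called with the replicate block and without the filter on low counts.

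Slc2a3, which encodes the high-affinity transporter GLUT3, was named by the study from these samples together with Hk2, so that neither is independent evidence of a direction. The study placed both in cDC1 gene modules specific to RIPK3 debris. These were picked at a limma P value under 0.05, another threshold than that used here. Slc2a3 ranged from 2.51 to 3.41 CPM in cDC1s with WT medium, from 1.99 to 3.58 CPM with BimS debris and from 3.27 to 4.36 CPM with RIPK3 debris. The ranges with BimS and RIPK3 debris overlapped, and the difference between them, 0.44 (SE 0.20), had an adjusted p of 0.258. In cDC2s, it stayed between 6.10 and 8.97 CPM in all samples.

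Hexokinases trap glucose in the cell as glucose 6-phosphate. Hk2 (ENSMUSG00000000628, chr6:82699740-82751469), the inducible enzyme that binds mitochondria, stood at 54.74, 58.74 and 50.03 CPM in cDC1s with WT medium, at 72.0, 91.7 and 77.6 CPM with BimS debris and at 87.1, 104.8 and 83.8 CPM with RIPK3 debris. In cDC2s the values were 24.2, 24.4 and 20.0 CPM with WT medium, 27.9, 32.4 and 27.2 CPM with BimS debris and 34.8 and 42.7 CPM with RIPK3 debris. The WT samples were the lowest of either cell type, while the debris groups overlapped in cDC1s and not in cDC2s. In cDC1s the rise was 0.56 (SE 0.11, adjusted p = 0.00643) with BimS debris and 0.75 (SE 0.11, adjusted p = 0.000786) with RIPK3 debris. RIPK3 debris raised it by 0.76 (SE 0.12, adjusted p = 0.000345) in cDC2s, and the value with BimS debris, 0.35, was called with the replicate block and without the filter.

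Hk1 (ENSMUSG00000037012, chr10:62104621-62215687), the constitutive hexokinase, went the other way. Its levels in cDC1s were 45.5, 41.8 and 49.1 CPM with WT medium, 42.0, 36.1 and 38.1 CPM with BimS debris and 35.3, 34.4 and 30.9 CPM with RIPK3 debris. In cDC2s they were 37.7, 37.3 and 35.1 CPM, then 30.4, 31.3 and 29.4 CPM, then 28.9 and 28.4 CPM. With RIPK3 debris every sample lay under all WT samples, whereas BimS and WT samples of cDC1s overlapped. Hk1 fell by 0.23 (SE 0.070, adjusted p = 0.021) and by 0.45 (SE 0.072, adjusted p = 1.04e-05) in cDC1s, and by 0.36 (SE 0.10, adjusted p = 0.0361) in cDC2s with RIPK3 debris. The first of these calls was lost without any 1 of 4 samples (cDC1 WT replicates 1 and 3, cDC1 BimS replicates 2 and 3, adjusted p up to 0.195), and the call in cDC2s without any 1 of 6 (cDC2 WT replicates 1 and 2, cDC2 BimS replicates 1 and 2 and both cDC2 RIPK3 replicates, adjusted p up to 0.275), with RLE factors (adjusted p = 0.05) and without the filter (adjusted p = 0.0633). With BimS debris in cDC2s the value was -0.28, which was called with the block, with filterByExpr and without cDC2 WT replicate 3.

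Hk3 (ENSMUSG00000025877, chr13:55153798-55169276), a hexokinase of myeloid cells, stood apart between the cell types. In cDC1s it was measured at 14.5, 15.0 and 14.2 CPM with WT medium, at 20.5, 18.1 and 20.8 CPM with BimS debris and at 14.7, 16.0 and 18.0 CPM with RIPK3 debris. In cDC2s it did not exceed 1.31 CPM in any sample. BimS debris raised it in cDC1s by 0.44 (SE 0.091, adjusted p = 0.000488), and RIPK3 debris gave 0.15 and no call. RIPK3 against BimS debris gave -0.29 (adjusted p = 0.0582), which was called with the replicate block, without cDC1 BimS replicate 2 (adjusted p = 0.0324) and without cDC1 RIPK3 replicate 3 (adjusted p = 0.00959).

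The makeup of the hexokinase transcripts changed with these moves. Per exonic length, Hk2 made up 44.6% ± 2.97 of hexokinase reads in cDC1s with WT medium (SD, n = 3), 53.3% ± 4.81 with BimS debris and 60.6% ± 2.74 with RIPK3 debris. In cDC2s the share was 38.4% ± 1.96, 49.3% ± 1.93 and 57.2% ± 3.88 (n = 2). Hk1 went from 35.1% to 24.3% and 21.0% in cDC1s and from 58.4% to 48.6% and 40.1% in cDC2s. In both cell types, each debris sample had a larger Hk2 share and a smaller Hk1 share than each WT sample. Which of the pair is more abundant depends on the length used: with canonical transcripts, an alternative chosen after seeing the data, Hk2 made up 31.6% in cDC1s and 24.7% in cDC2s with WT medium and 47.7% and 41.3% with RIPK3 debris, against 48.0%, 72.5%, 31.8% and 55.9% for Hk1.

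**Figure D2:**
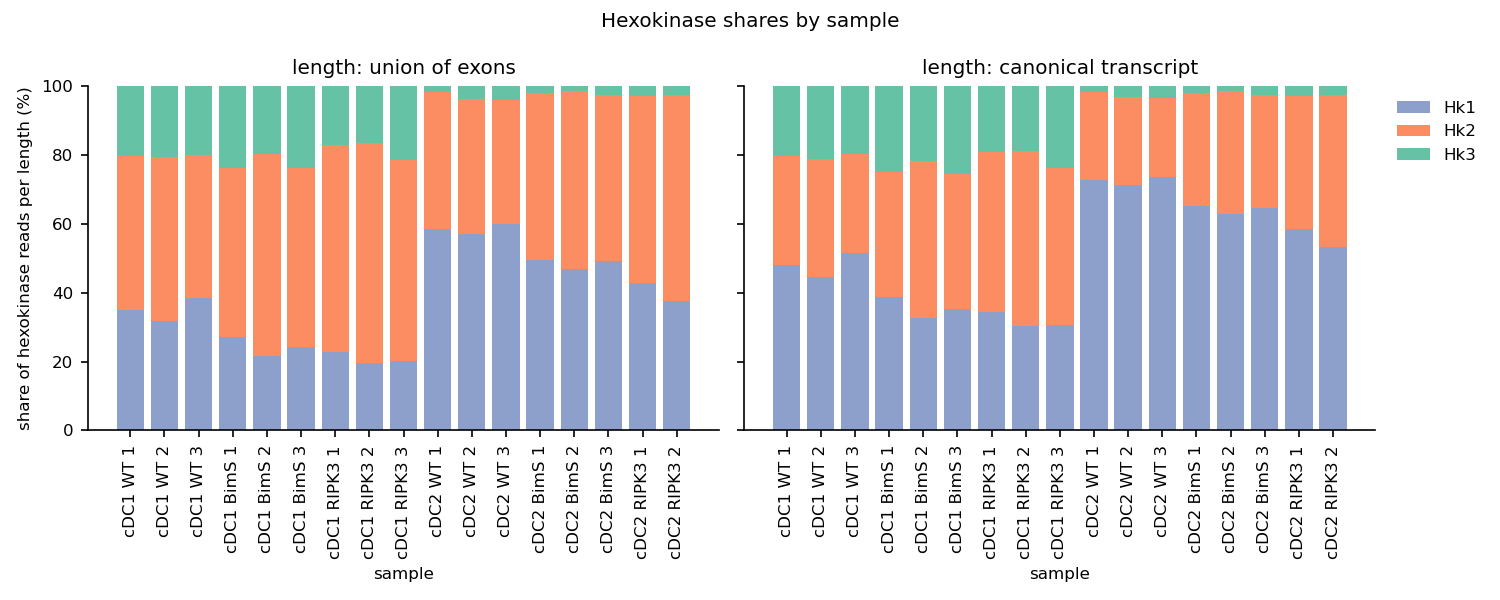
Share of hexokinase reads per length (y axis, percent) for Hk1, Hk2 and Hk3 in each of 17 samples (x axis), with the exon union (left) or the canonical transcript (right) as length. The Hk2 part is larger with debris than with WT medium in both panels, and Hk3 is a visible part in cDC1s, 20.3% on average with WT medium in the left panel.

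In upper glycolysis, aldolase A was the clearest mover. Aldoa (ENSMUSG00000030695, chr7:126393822-126399923), which splits fructose 1,6-bisphosphate, was at 534, 516 and 526 CPM in cDC1s with WT medium, at 817, 752 and 765 CPM with BimS debris and at 803, 776 and 797 CPM with RIPK3 debris. In cDC2s the levels were 761, 799 and 957 CPM with WT medium, 1152, 1120 and 1311 CPM with BimS debris and 1220 and 1195 CPM with RIPK3 debris. Debris and WT samples did not overlap in either cell type, and the ranges of the debris groups overlapped. The rise was 0.57 (SE 0.045, adjusted p = 3.23e-12) and 0.59 (SE 0.045, adjusted p = 1.08e-12) in cDC1s and 0.51 (SE 0.089, adjusted p = 0.000841) and 0.53 (SE 0.098, adjusted p = 0.00138) in cDC2s. The last call was lost with limma on unscaled counts (0.36, adjusted p = 0.103).

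Pfkl (ENSMUSG00000020277, chr10:77818084-77845922), the liver-type phosphofructokinase, fell in cDC1s. Its levels there were 12.8, 12.9 and 14.8 CPM with WT medium, 10.6, 9.10 and 9.78 CPM with BimS debris and 9.00, 9.73 and 9.22 CPM with RIPK3 debris. Cells of the cDC2 type held 22.9, 23.1 and 24.6 CPM, then 20.9, 17.4 and 20.1 CPM, then 18.2 and 17.9 CPM. The change in cDC1s was -0.46 (SE 0.10, adjusted p = 0.00131) and -0.54 (SE 0.10, adjusted p = 0.000157), with no overlap between WT and debris samples. The values in cDC2s, -0.28 and -0.38, were called with the replicate block, the second also with filterByExpr and with limma on unscaled counts. Pfkl shares 39.8% of its exonic length with Cfap410 on the other strand, which also fell in cDC1s (-0.55 and -0.53, adjusted p = 0.0201 and 0.0249) and had up to 41.3% as many counts, and the part of this overlap in the Pfkl result was not tested.

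Gpi1, the isomerase that follows hexokinase, was at 328, 323 and 330 CPM in cDC1s with WT medium, at 347, 353 and 344 CPM with BimS debris and at 359, 374 and 364 CPM with RIPK3 debris. RIPK3 debris raised it by 0.16, a call that was lost without cDC1 WT replicate 2 (0.15, adjusted p = 0.0547) and without cDC1 RIPK3 replicate 2 (0.14, adjusted p = 0.0829). In cDC2s it ranged from 202 to 248 CPM over all media with no call against WT medium. Tpi1, the triose phosphate isomerase, was at 13.0, 12.0 and 15.7 CPM in cDC2s with WT medium, at 8.76, 10.2 and 10.6 CPM with BimS debris and at 10.8 and 11.4 CPM with RIPK3 debris. BimS debris lowered it by 0.46, which was not called when any 1 of 5 samples was left out (cDC2 WT replicate 3, cDC2 BimS replicates 1 and 2, both cDC2 RIPK3 replicates, adjusted p up to 0.173). In cDC1s Tpi1 stayed between 28.3 and 32.3 CPM. Of the rest of upper glycolysis, Pfkp ranged from 504 to 706 CPM, Aldoc from 1.22 to 9.66 CPM and Pfkm from 0.254 to 1.37 CPM, and Pfkm and Aldoc had no call against WT medium, while Pfkp was lower with RIPK3 debris in cDC2s only with the block.

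Fructose 2,6-bisphosphate is the strongest activator of phosphofructokinase, and Pfkfb3 (ENSMUSG00000026773, chr2:11476244-11558888) encodes an enzyme that makes it. In cDC1s its levels were 307, 335 and 339 CPM with WT medium, 265, 267 and 273 CPM with BimS debris and 262, 269 and 266 CPM with RIPK3 debris. In cDC2s they were 247, 218 and 201 CPM with WT medium, 372, 323 and 346 CPM with BimS debris and 396 and 355 CPM with RIPK3 debris. All debris samples of cDC1s lay under the WT samples, and all debris samples of cDC2s lay over them. Pfkfb3 fell by 0.28 (SE 0.048, adjusted p = 3.07e-05) and by 0.30 (SE 0.048, adjusted p = 7.13e-06) in cDC1s, and rose by 0.64 (SE 0.089, adjusted p = 7.23e-05) and by 0.76 (SE 0.098, adjusted p = 2.34e-05) in cDC2s.

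The test of this difference between the cell types, made in 1 fit of all 17 samples, gave an interaction of -0.93 (SE 0.10, adjusted p = 2.02e-06) for BimS debris and of -1.07 (SE 0.11, adjusted p = 3.86e-07) for RIPK3 debris, as cDC1 minus cDC2. Pfkfb3 was the 1 member of 34 called in each interaction, where 0.87% and 1.14% of all genes were called (2.32% and 2.35% with the replicate block). Both were called in 24 of 24 alternatives, with values from -1.02 to -0.87 and from -1.16 to -0.99. With WT medium Pfkfb3 was higher in cDC1s by 0.55 (adjusted p = 1.71e-07). With RIPK3 debris the order of the levels was the other one, 355 CPM or more in cDC2s and 269 CPM or less in cDC1s.

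Its relatives did not share this pattern. Pfkfb4 ranged from 8.63 to 12.1 CPM in cDC1s and from 32.9 to 38.5 CPM in cDC2s, and Pfkfb2 stayed at or under 2.34 CPM. Neither was called against WT medium. Tigar, a phosphatase that removes fructose 2,6-bisphosphate, was at 8.72, 8.90 and 7.14 CPM in cDC2s with WT medium, at 6.39, 6.85 and 6.04 CPM with BimS debris and at 5.60 and 5.59 CPM with RIPK3 debris. RIPK3 debris lowered it by 0.56 in cDC2s, and this call was lost without any 1 of 6 samples (cDC2 WT replicates 1 and 2, cDC2 BimS replicates 1 and 2, both cDC2 RIPK3 replicates, adjusted p up to 0.263). It was lost as well with DESeq2 (adjusted p = 0.0765), with RLE factors (adjusted p = 0.0531) and with limma on TMM-scaled CPM (adjusted p = 0.0519). With BimS debris in cDC2s the value of Tigar, -0.36, was called only with the replicate block (edgeR, adjusted p = 0.0244). In cDC1s its levels were 7.62, 7.07 and 7.17 CPM, then 7.76, 7.07 and 7.47 CPM, then 5.68, 6.13 and 7.26 CPM, with no call.

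**Figure D3:**
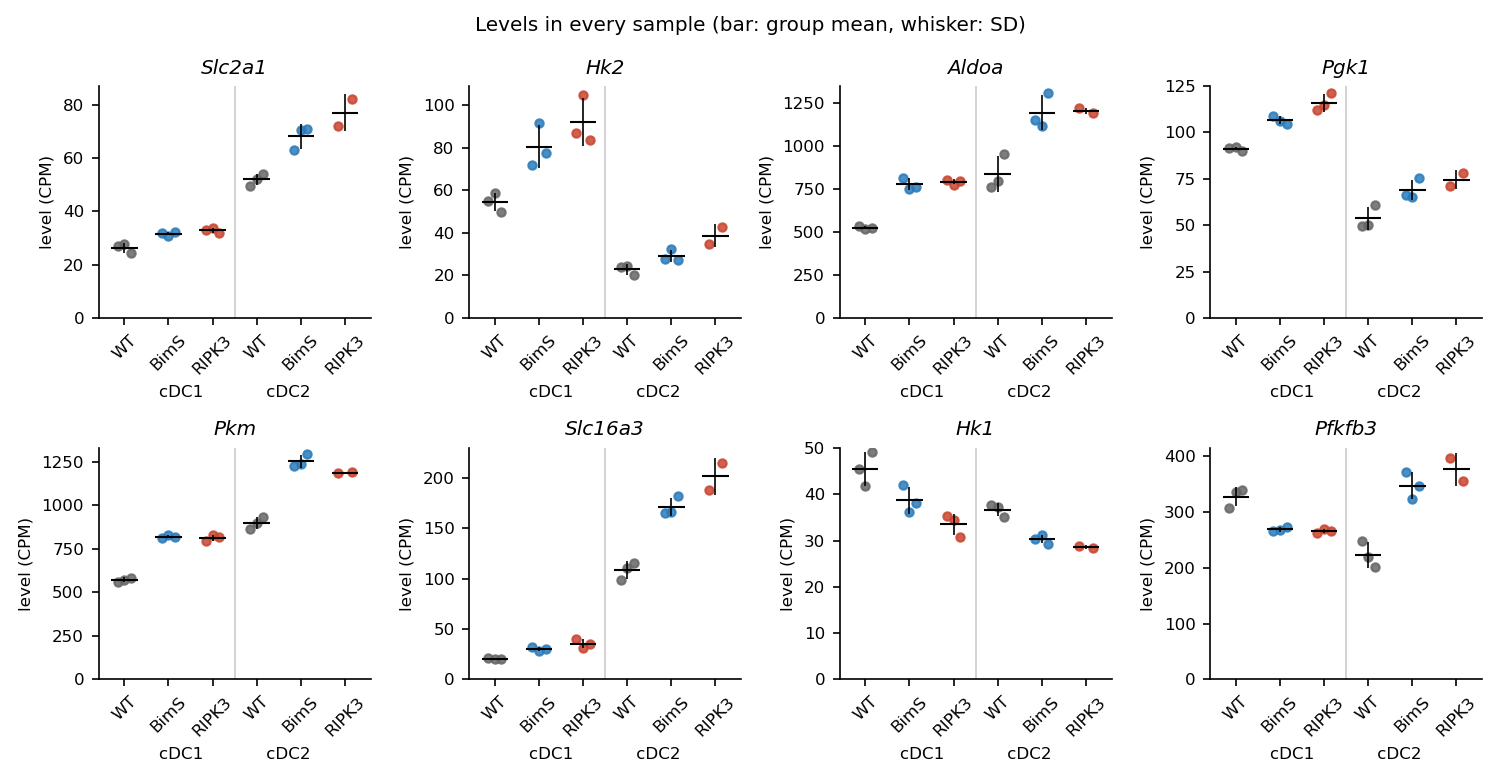
Level in CPM (y axis, from 0) of 8 members in every sample of the 6 groups (x axis), with the group mean as a bar and the SD as a whisker. Slc2a1, Hk2, Aldoa, Pgk1, Pkm and Slc16a3 stand higher with debris in both cell types, Hk1 stands lower, and Pfkfb3 goes from 307 to 339 CPM down to 262 to 273 CPM in cDC1s and from 201 to 247 CPM up to 323 to 396 CPM in cDC2s.

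Lower glycolysis yields ATP and pyruvate. Pkm (ENSMUSG00000032294, chr9:59563364-59586663), pyruvate kinase of the last step, was at 559, 573 and 585 CPM in cDC1s with WT medium, at 813, 830 and 818 CPM with BimS debris and at 793, 829 and 816 CPM with RIPK3 debris. In cDC2s the levels were 862, 900 and 932 CPM, then 1225, 1235 and 1295 CPM, then 1187 and 1189 CPM. WT and debris samples were far apart and replicates close together. The rise was 0.52 (SE 0.044, adjusted p = 1.19e-11) and 0.50 (SE 0.044, adjusted p = 2.54e-11) in cDC1s, and 0.48 (SE 0.072, adjusted p = 0.000188) and 0.41 (SE 0.080, adjusted p = 0.00232) in cDC2s, the last of which was lost with limma on unscaled counts (0.23, adjusted p = 0.36). The gene counts do not tell its M1 and M2 splice forms apart.

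Pgk1 (ENSMUSG00000062070, chrX:105230706-105247305), phosphoglycerate kinase, makes the first ATP of the pathway. It stood at 91.4, 92.0 and 90.2 CPM in cDC1s with WT medium, at 108.9, 106.2 and 104.6 CPM with BimS debris and at 111.8, 114.7 and 121.3 CPM with RIPK3 debris. In cDC2s it was found at 49.7, 50.2 and 60.9 CPM, then at 66.3, 65.3 and 75.4 CPM, then at 71.1 and 78.1 CPM. No debris sample reached down to the WT samples of its cell type. Changes were 0.23 (SE 0.052, adjusted p = 0.00185) and 0.34 (SE 0.052, adjusted p = 4.03e-06) in cDC1s and 0.36 (SE 0.096, adjusted p = 0.0248) and 0.48 (SE 0.11, adjusted p = 0.00654) in cDC2s. In cDC2s the BimS call was lost without any 1 of 4 samples (cDC2 WT replicates 1 and 2, cDC2 BimS replicates 1 and 3, adjusted p up to 0.155) and the RIPK3 call without cDC2 WT replicate 2 or cDC2 RIPK3 replicate 2 (adjusted p up to 0.139). With limma on unscaled counts Pgk1 was not called in cDC1s (0.19 and 0.22, adjusted p = 0.362 and 0.162) or in cDC2s (0.29 and 0.31, adjusted p = 0.261 and 0.238).

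Gapdh (ENSMUSG00000057666, chr6:125135289-125143518), a dehydrogenase often used as a reference gene, was not constant. Its levels were 127, 130 and 132 CPM in cDC1s with WT medium, 165, 167 and 160 CPM with BimS debris and 159, 168 and 177 CPM with RIPK3 debris. In cDC2s they were 132, 151 and 186 CPM, then 187, 185 and 219 CPM, then 193 and 202 CPM, with WT replicate 3 over the lowest BimS sample. The rise in cDC1s was 0.34 (SE 0.051, adjusted p = 3.02e-06) and 0.37 (SE 0.051, adjusted p = 5.35e-07), the second of which was lost with limma on unscaled counts (0.25, adjusted p = 0.0901). In cDC2s, 0.33 and 0.34 were not called (adjusted p = 0.0696 and 0.1), and were called with the replicate block, without the filter and without cDC2 WT replicate 3 (0.47, adjusted p = 0.000594, and 0.48, adjusted p = 0.00102). DESeq2 called the rise with BimS debris as well (0.35, adjusted p = 0.0375).

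Eno1, the main enolase, was at 24.4, 25.5 and 24.4 CPM in cDC1s with WT medium, at 27.1, 31.6 and 28.7 CPM with BimS debris and at 25.2, 29.2 and 27.0 CPM with RIPK3 debris. The rise with BimS debris, 0.24, was not called without any 1 of 4 samples (cDC1 WT replicates 1 and 3, cDC1 BimS replicates 2 and 3, adjusted p up to 0.258), with DESeq2 (adjusted p = 0.0501) or with limma on TMM-scaled CPM (adjusted p = 0.0524). In cDC2s it ranged from 38.3 to 52.8 CPM with no call. Pgam1, phosphoglycerate mutase, lay between 7.56 and 11.2 CPM, and the neuronal enolase Eno2 between 0.203 and 0.972 CPM in cDC1s and between 2.69 and 4.97 CPM in cDC2s. Pgam1 had no call against WT medium, and Eno2 had one only with the block (BimS debris in cDC2s).

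Several of these enzymes have near-identical copies in the genome, and how reads with more than 1 place were counted is not given in the sources used here. Of the 54-base stretches of the canonical transcript, 93.1% of Pgam1, 92.7% of Pgk1, 85.6% of Gapdh, 65.4% of Mpc1, 62.7% of Eno1, 36.9% of Pkm, 31.2% of Pdhb, 28.6% of Ldha, 25.7% of Ldhb, 22.1% of Gpi1, 21.2% of Tpi1 and 12.2% of Aldoa occur elsewhere in GRCm39. Their levels are therefore uncertain, while Slc2a1, Hk1, Hk2, Hk3, Pfkp and Slc16a3 had no such stretch and Pfkfb3 had 0.912%. Genes on the other strand share 41.6% of the exonic length of Gapdh (Iffo1), 27.8% of Pdhb (Pxk) and 23.1% of Pdk2 (Samd14), and genes on the same strand share 43.1% of Aldoa (Gm57854) and 23.5% of Pkm (Gm49759), and whether counting used strand is not given in the sources used here.

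Slc16a3 (ENSMUSG00000025161, chr11:120838846-120851694) encodes MCT4, which exports lactate. In cDC1s it was at 21.46, 20.04 and 20.44 CPM with WT medium, at 32.2, 28.3 and 30.0 CPM with BimS debris and at 39.95, 31.01 and 34.68 CPM with RIPK3 debris. The cDC2 values were 98.4, 110.4 and 115.7 CPM, then 164.9, 166.5 and 181.8 CPM, then 188.4 and 214.7 CPM. WT samples were lowest in both cell types, and RIPK3 samples lay over all BimS samples in cDC2s. The rise was 0.55 (SE 0.082, adjusted p = 3.94e-06) and 0.76 (SE 0.081, adjusted p = 2.73e-09) in cDC1s, and 0.66 (SE 0.087, adjusted p = 3.85e-05) and 0.90 (SE 0.095, adjusted p = 2.12e-06) in cDC2s, the largest value among the members called there. It shares 40.1% of its exonic length with Csnk1d on the opposite strand, which had up to 1155% as many counts as Slc16a3. The change of Csnk1d itself was 0.00 and -0.01 in cDC1s and 0.06 and 0.02 in cDC2s (adjusted p from 0.747 to 0.992), and the part of the overlap in the level and change of Slc16a3 was not tested.

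Ldha (ENSMUSG00000063229, chr7:46490899-46505061), which reduces pyruvate to lactate, went down in cDC1s as the exporter went up. It was measured at 201, 207 and 215 CPM with WT medium, at 173, 183 and 182 CPM with BimS debris and at 160, 173 and 183 CPM with RIPK3 debris. In cDC2s its levels were 81.2, 103.8 and 101.2 CPM, then 71.9, 88.7 and 84.5 CPM, then 76.3 and 94.6 CPM. In cDC1s no debris sample reached the WT samples, and in cDC2s the groups overlapped. Ldha fell by 0.21 (SE 0.052, adjusted p = 0.00324) and by 0.28 (SE 0.052, adjusted p = 9.4e-05) in cDC1s. In cDC2s the values were -0.22 and -0.16, the first called with the replicate block.

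Ldhb, the other lactate dehydrogenase, was near absent, with 0 counts in every cDC1 sample with WT medium or BimS debris, 1 to 2 counts with RIPK3 debris and 1 to 6 counts in cDC2 samples. It was tested only where cDC2s were in the fit. Slc16a1, which encodes the transporter MCT1, ranged from 1.72 to 4.27 CPM with no call against WT medium. Of the reads per length on Slc16a1 and Slc16a3 alone, Slc16a3 thus made up 73.5% in cDC1s with WT medium, 82.3% with BimS debris and 83.1% with RIPK3 debris. In cDC2s its part of this pair was 95.3% to 97.9%. Other monocarboxylate transporter genes were not part of these shares.

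Mpc1 and Mpc2 form the carrier that brings pyruvate into mitochondria, and the pyruvate dehydrogenase kinases inactivate the complex that converts it to acetyl-CoA there. Pdk3, the kinase with most reads, was at 36.8, 33.9 and 34.3 CPM in cDC1s with WT medium, at 30.9, 28.5 and 29.0 CPM with BimS debris and at 32.7, 29.5 and 29.8 CPM with RIPK3 debris. Cells of the cDC2 type held 60.6, 67.4 and 73.6 CPM, then 52.7, 56.9 and 61.2 CPM, then 67.4 and 70.6 CPM, and the BimS value there, -0.24, was called with the block and without cDC2 WT replicate 1. The falls in cDC1s were 0.25 and 0.19 in size, and the calls did not hold without single samples, 3 of them with BimS debris (cDC1 WT replicate 1, cDC1 BimS replicates 2 and 3, adjusted p up to 0.0925) and 6 with RIPK3 debris (all cDC1 WT replicates, cDC1 BimS replicate 3, cDC1 RIPK3 replicates 2 and 3, adjusted p up to 0.223). The Pdk3 call with RIPK3 debris was made by 6 of 16 alternatives and was lost also with DESeq2, with RLE factors, without the filter and with limma on TMM-scaled CPM (adjusted p from 0.0559 to 0.0891).

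Pdk2 was at 3.46, 3.41 and 3.34 CPM in cDC1s with WT medium, at 2.71, 2.07 and 2.27 CPM with BimS debris and at 2.40, 2.13 and 1.96 CPM with RIPK3 debris. The cDC2 values were 2.87, 2.68 and 2.79 CPM, then 2.13, 2.28 and 1.90 CPM, then 2.04 and 1.86 CPM. Debris samples lay under WT samples in both cell types. The change in cDC1s, -0.54 and -0.65, was called, but the BimS call was lost without any 1 of 6 samples (all cDC1 WT replicates, cDC1 BimS replicates 2 and 3, cDC1 RIPK3 replicate 2, adjusted p up to 0.209) and with DESeq2, with RLE factors, without the filter and with limma on TMM-scaled CPM (adjusted p from 0.05 to 0.0993), so that 5 of 16 alternatives made it, and the change in cDC2s, -0.40 and -0.51, was not called.

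Pdhb, a subunit of pyruvate dehydrogenase, was at 50.4, 51.8 and 56.5 CPM in cDC1s with WT medium, at 61.4, 60.2 and 60.3 CPM with BimS debris and at 53.7, 59.5 and 56.2 CPM with RIPK3 debris. BimS debris raised it by 0.20, a call that was lost without any 1 of 5 samples (cDC1 WT replicates 1 and 2, all cDC1 BimS replicates, adjusted p up to 0.16). In cDC2s it lay between 44.8 and 54.8 CPM. Pdha1, the other subunit of that enzyme, ranged from 79.3 to 116.8 CPM, Mpc1 from 46.4 to 63.1 CPM, Mpc2 from 13.2 to 22.8 CPM and Pdk1 from 0.609 to 4.42 CPM, with no call against WT medium. Pdha1 was called lower under some alternatives (with BimS debris under the replicate block and without single samples in both cell types and with filterByExpr in cDC1s, and with RIPK3 debris in cDC2s under the block), as was Mpc1 higher in cDC1s and with RIPK3 debris in cDC2s, with values from -0.26 to 0.33. Pdk4 had 1 count in 1 cDC2 sample with BimS debris and none in the other 16.

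**Figure D4:**
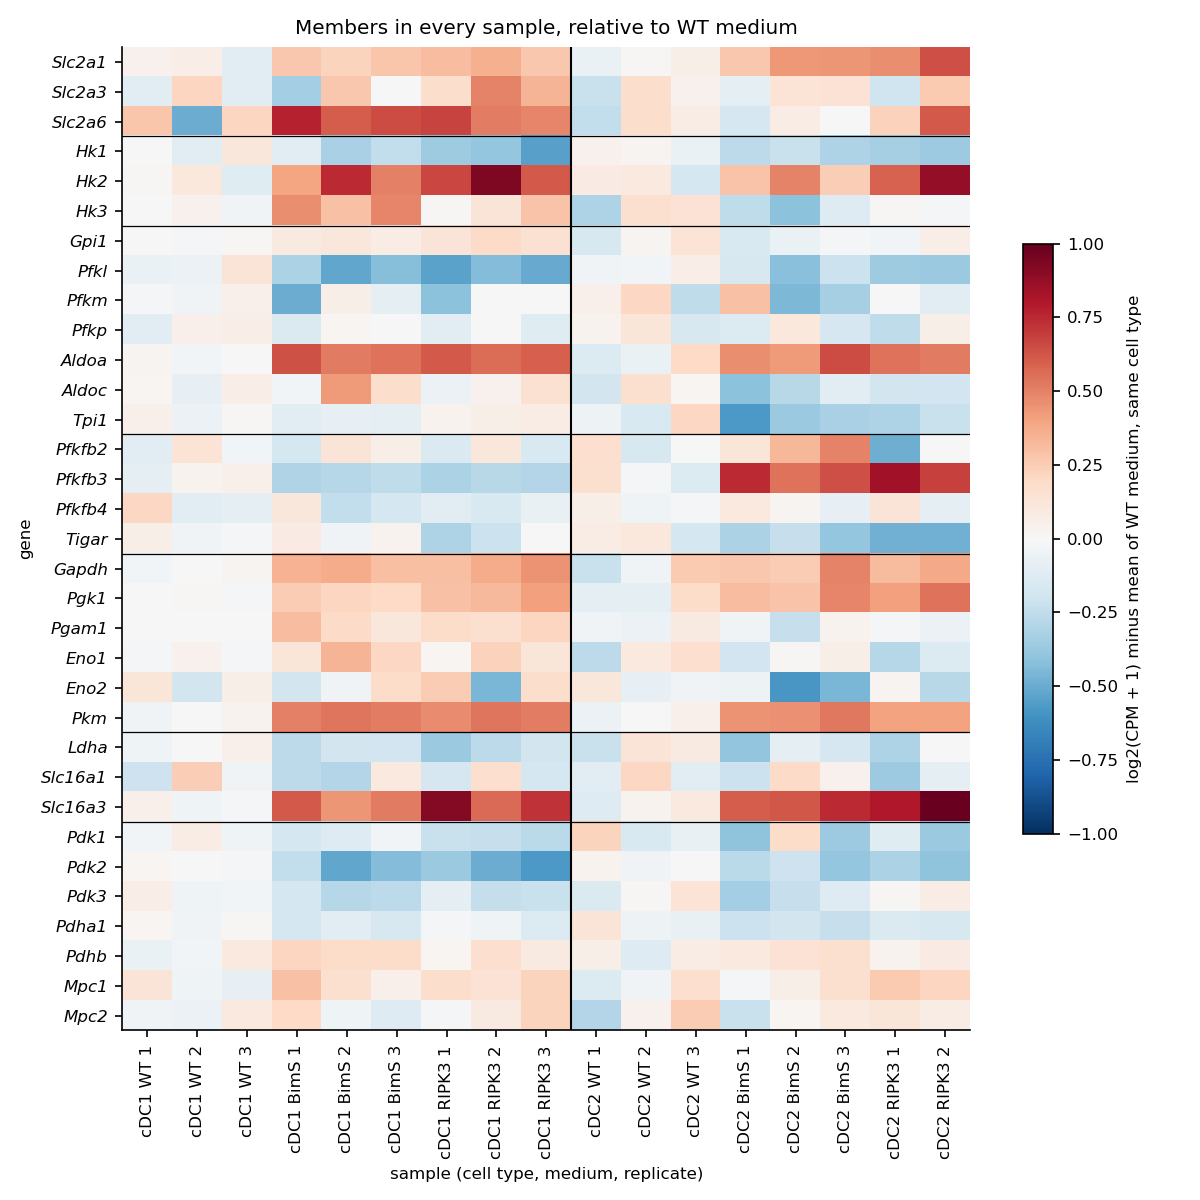
Level of 33 members (y axis, by role) in the 17 samples (x axis), as log2(CPM + 1) minus the mean of the WT samples of the same cell type, on a scale from -1 (blue) to 1 (red). Rows such as Aldoa, Pkm and Slc16a3 are red in all debris samples, Hk1 and Pdk2 are blue, and Pfkfb3 turns from blue in cDC1s to red in cDC2s.

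Apoptotic and necroptotic debris were then compared directly. With edgeR 0 members were called in cDC1s (background 4.15%, 1.94% higher) and 0 in cDC2s (background 0.379%), and DESeq2 and limma called 0 as well. An unadjusted p under 0.05 was found for 6 and 5 members. The share of all genes at that threshold was not taken, so these counts cannot be read against it. In cDC1s these members were Slc2a3 (0.44), Slc16a3 (0.22), Tpi1 (0.15), Pgk1 (0.12), Hk1 (-0.21) and Hk3 (-0.29), with adjusted p from 0.0582 to 0.258. In cDC2s they were Slc2a6 (0.50), Hk2 (0.41), Pdk3 (0.28), Slc16a3 (0.24) and Pfkfb2 (-1.21), with adjusted p from 0.229 to 0.464. Without the filter on low counts, 2 members were called in cDC1s and 1 in cDC2s, and the share of all genes called in that fit is not given here. With the replicate block, 4 members were called in cDC1s, where 8.87% of all genes were (Hk2 and Slc16a3 higher with RIPK3 debris, Hk1 and Hk3 lower), and 8 in cDC2s, where 14.3% were (Slc2a1, Slc2a6, Hk2, Gpi1, Pgk1, Slc16a3, Pdk3 and Mpc1, all higher with RIPK3 debris). The interaction between cell type and the kind of debris called 0 of 34 members with edgeR, DESeq2 or limma (background 0.0314%). An unadjusted p under 0.05 was found for 3, and the share of all genes at that threshold was not taken here either.

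Before any debris, the cell types differed in most members. With WT medium, 26 of 34 members differed between cDC1s and cDC2s, 11 higher in cDC1s and 15 lower (background 46.2% called, 22.5% higher and 23.7% lower, and 48.7% with the replicate block). Higher in cDC1s were all 3 hexokinases, with Hk3 at 3.74 (SE 0.17, adjusted p = 3.15e-17), Hk2 at 1.25 and Hk1 at 0.30, together with Gpi1, Aldoc, Tpi1, Pgk1, Pfkfb2, Pfkfb3, Ldha (1.11) and Pdk1 (1.84). Lower in cDC1s were all 3 glucose transporters, Slc2a1 at -0.99, Slc2a3 at -1.40 and Slc2a6 at -2.64, the lactate exporter Slc16a3 at -2.40 (SE 0.088, adjusted p = 2.25e-19), and Pfkl, Pfkp, Pfkfb4, Aldoa, Gapdh, Eno1, Eno2, Pkm, Ldhb, Pdk3 and Pdha1. Thus cDC2s held more transcripts of the 3 glucose transporters and of Slc16a3, and cDC1s held more of the 3 hexokinases and of Ldha. Slc16a1, the other monocarboxylate transporter among the members, leaned to cDC1s (0.47) and was not called. Without cDC2 WT replicate 3, Gapdh (-0.14, adjusted p = 0.128) and Ldhb (adjusted p = 0.0602) were no longer called and Mpc2 was (0.38, adjusted p = 0.0107). The Pfkp call was lost without cDC1 WT replicate 1 or cDC2 WT replicate 1 or 2 (adjusted p up to 0.166) and with DESeq2 (adjusted p = 0.0549), and Slc16a1 was called with the block, with limma on unscaled counts and without cDC1 WT replicate 1 or cDC2 WT replicate 2.

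In order of TPM with the exon union as length, Aldoa led in both cell types with WT medium, with 502 TPM in cDC1s and 788 TPM in cDC2s. In cDC1s Ldha (225), Pkm (219), Pgk1 (209), Pfkfb3 (209), Gpi1 (196) and Pfkp (175) followed, and in cDC2s Pkm (339), Pfkp (201), Pfkfb3 (140), Gpi1 (133) and Pgk1 (121). The union of exons is far longer than the canonical transcript for some genes, 7160 against 1420 bases for Gapdh, so that the order between genes depends on this choice. Among the members of several families, a single gene held most reads per length. Over the group means, Pfkp made up 95.4% to 97.4% of phosphofructokinases, Aldoa 98.5% to 99.9% of aldolases, Ldha 99.7% to 100% of lactate dehydrogenases and Pdk3 83.0% to 96.3% of the kinases. Pfkfb3 made up 84.1% of the Pfkfb members in cDC2s with WT medium and 89.1% and 89.9% with BimS and RIPK3 debris.

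**Figure D5:**
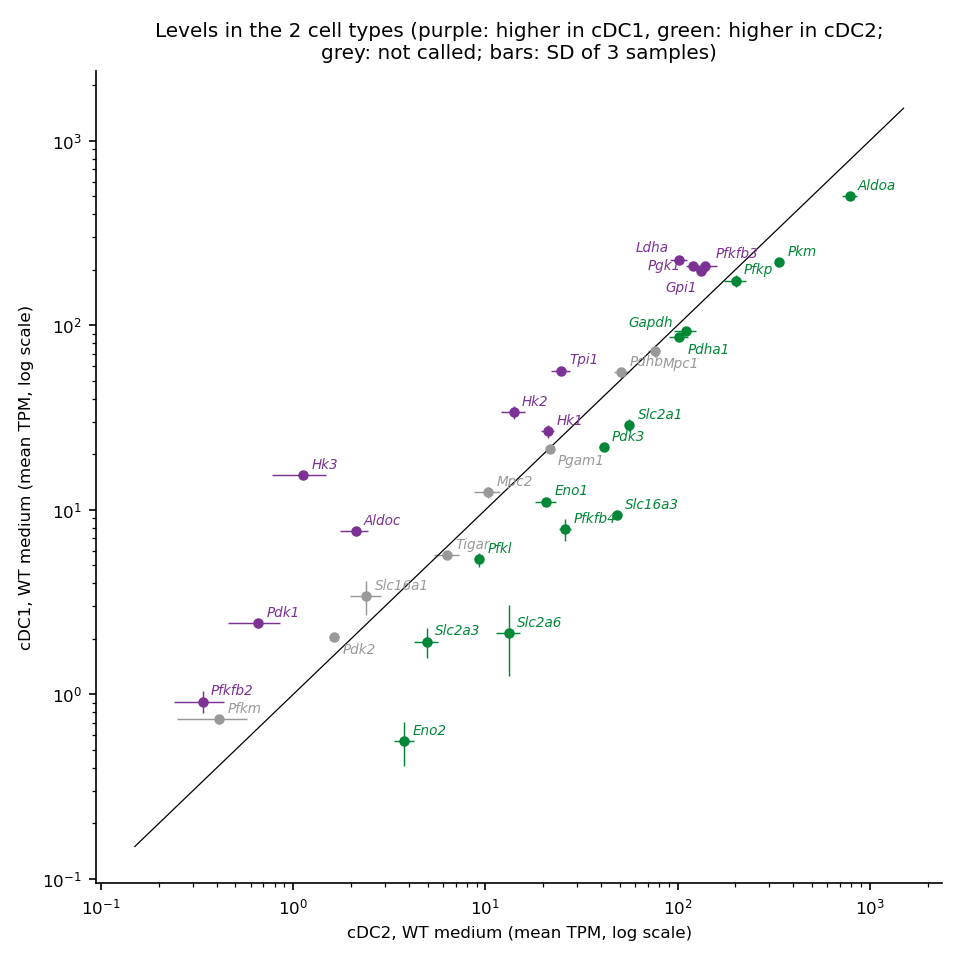
Mean TPM of each member in cDC1s (y axis, log scale) and cDC2s (x axis, log scale) with WT medium, with the SD of 3 samples as bars and the line of equal levels. Purple genes were called higher in cDC1s, green genes higher in cDC2s and grey genes were not called: Hk3, Aldoc and Pdk1 lie above the line and Slc16a3, Slc2a6 and Eno2 below it.

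Other genes of these routes were described from 4 further lists. Their counts stand against the 13.2%, 16.5%, 7.01% and 7.21% of all genes called with BimS and RIPK3 debris in cDC1s and with BimS and RIPK3 debris in cDC2s. Among 35 other genes of glycolysis and pyruvate, 31 of them in the table, BimS debris raised 4 and lowered 1 of 29 tested in cDC1s and RIPK3 debris raised 7 and lowered 1, and in cDC2s 2 rose and 1 fell of 28 with BimS debris and 2 rose with RIPK3 debris. These are 17.2% and 27.6% of the genes tested in cDC1s, and 10.7% and 7.14% in cDC2s, the last close to the background. Pcx, pyruvate carboxylase, which makes oxaloacetate from pyruvate, had the lowest adjusted p, with a rise of 1.76 and 1.51 in cDC1s and of 1.75 and 1.28 in cDC2s (adjusted p = 7.12e-09, 2.54e-07, 9.8e-06 and 0.00113). It went from 1.35 to 1.85 CPM with WT medium to 4.84 to 5.66 CPM with BimS debris and 3.75 to 5.73 CPM with RIPK3 debris in cDC1s. Gpd2, the mitochondrial glycerol 3-phosphate dehydrogenase, rose by 0.38 and 0.33 in cDC1s and by 0.58 and 0.53 in cDC2s. Pck2, the mitochondrial enzyme that makes phosphoenolpyruvate, fell with BimS debris, by 0.34 in cDC1s and by 0.40 in cDC2s, and RIPK3 debris exceeded BimS debris in cDC1s (0.28, adjusted p = 0.00135).

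In the citric acid cycle, 3 of 17 genes rose and 2 fell with BimS debris in cDC1s, 3 rose and 1 fell with RIPK3 debris, and in cDC2s 1 rose and 1 fell with BimS debris and 1 fell with RIPK3 debris. The shares called, 29.4% and 23.5% in cDC1s and 11.8% and 5.88% in cDC2s, compare with backgrounds of 13.2%, 16.5%, 7.01% and 7.21%. Fh1, fumarase, was lower each time, by 0.33 and 0.48 in cDC1s and by 0.68 and 0.98 in cDC2s (adjusted p = 0.00081, 2.02e-06, 0.000112 and 6.62e-06). In cDC2s its level went from 42.6 to 54.3 CPM with WT medium to 29.4 to 30.0 CPM with BimS debris and 23.3 to 24.6 CPM with RIPK3 debris. Ogdh, a subunit of oxoglutarate dehydrogenase, rose by 0.27 and 0.14 in cDC1s.

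Of 24 genes of the HIF-1 pathway and its targets outside glycolysis, 4 rose and 1 fell with BimS debris in cDC1s, 8 rose and 2 fell with RIPK3 debris, and in cDC2s 3 rose and 1 fell with BimS debris and 6 rose and 1 fell with RIPK3 debris. The shares called were 20.8% and 41.7% in cDC1s and 16.7% and 29.2% in cDC2s, against the same backgrounds. Against BimS debris, RIPK3 debris raised 5 in cDC1s (20.8%, background 4.15%) and 1 in cDC2s (4.17%, background 0.379%). Ddit4, an inhibitor of mTORC1 signaling, was the first of these with 0.82 (adjusted p = 4.27e-06) in cDC1s and 0.67 (adjusted p = 0.00699) in cDC2s, followed in cDC1s by Bhlhe40 (0.21) and Mxi1 (0.18), both transcriptional repressors. Against WT medium, Mxi1 was called higher with BimS and RIPK3 debris, by 0.295 and 0.479 in cDC1s and by 0.455 and 0.470 in cDC2s. Vegfa, a growth factor of blood vessels, went opposite ways in the cell types with BimS debris, from 90.1 to 90.5 CPM down to 72.4 to 75.5 CPM with BimS debris in cDC1s and from 224 to 258 CPM up to 315 to 331 CPM in cDC2s. With RIPK3 debris it rose in cDC2s, to 364 to 370 CPM, and was not called in cDC1s (-0.09, adjusted p = 0.355). Its interactions were -0.69 and -0.68 (adjusted p = 3.55e-05 and 7.43e-05). Ddit4 also had a called interaction with BimS debris (-0.72, adjusted p = 0.0107), as had Ndrg1 with RIPK3 debris (-0.57, adjusted p = 0.00426). Of 9 glucose-sensing MondoA and MYC regulators, 1 rose and 2 fell with BimS debris in cDC1s, 1 rose and 3 fell with RIPK3 debris, and 1 rose and 1 fell with either in cDC2s. These are 33.3% and 44.4% of the list in cDC1s and 22.2% with either debris in cDC2s, against backgrounds of 13.2%, 16.5%, 7.01% and 7.21%. Arrdc4, an arrestin-like relative of Txnip that lowers glucose uptake, rose by 0.18 and 0.31 in cDC1s and by 0.42 and 0.51 in cDC2s, and Txnip fell by 0.34 in cDC1s with BimS debris.

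Markers of other cells were also followed. In cDC1s 18 markers of adherent tumor cells summed to 11.4 to 11.9 CPM with WT medium, to 12.1 to 12.9 CPM with BimS debris and to 13.1 to 14.9 CPM with RIPK3 debris, and in cDC2s to 44.9 to 52.3, 36.9 to 48.2 and 32.8 to 39.5 CPM. The sum was thus higher with debris in cDC1s and lower with RIPK3 debris in cDC2s. Of the list, 1 marker was called higher with RIPK3 debris in cDC1s and 0 in the other debris comparisons, and Lgals7 had no count in either WT group. The sum of 11 macrophage markers went from 630 to 743 CPM to 5208 to 5399 and 6712 to 7130 CPM in cDC1s and from 169 to 244 CPM to 1468 to 1762 and 2651 to 2833 CPM in cDC2s. Nearly all of this was Hmox1, which degrades heme and in cDC1s went from 572 to 684 CPM to 5079 to 5242 and 6596 to 7009 CPM. Spic, a transcription factor of red pulp macrophages, rose by 3.56 and 2.89 in cDC1s and by 2.83 and 2.78 in cDC2s (adjusted p from 1.28e-06 to 2.76e-05). Without Hmox1 and Spic, a split chosen after seeing the data, the other 9 summed to 50.8 to 58.8 CPM in all cDC1 samples and to 40.0 to 62.6 CPM in all cDC2 samples. Among these 9, C1qc and Mrc1 fell with BimS debris in cDC1s (by 1.61 and by 1.60, adjusted p = 0.0343 and 0.0395), and Mrc1 fell with RIPK3 debris in cDC2s (by 1.05, adjusted p = 0.0387). Neutrophil and monocyte markers summed in cDC1s to 12.6 to 13.4 CPM with WT medium, 8.73 to 10.8 CPM with BimS debris and 10.4 to 12.8 CPM with RIPK3 debris. In cDC2s they summed to 23.0 to 31.7 CPM with WT medium, 24.0 to 31.1 CPM with BimS debris and at most 26.9 CPM with RIPK3 debris. Of them, Fcgr1 fell in cDC1s by 1.03 and by 2.12 (adjusted p = 6.8e-05 and 7.15e-10) and with RIPK3 debris in cDC2s by 0.65 (adjusted p = 0.0128), and Ccr2 rose with RIPK3 debris in cDC1s by 0.70 (adjusted p = 0.00343). Plasmacytoid dendritic cell markers summed in cDC1s to 79.8 to 88.6 CPM with WT medium, 69.5 to 75.5 CPM with BimS debris and 74.0 to 78.4 CPM with RIPK3 debris. In cDC2s they summed to 253 to 264 CPM with WT medium, 272 to 287 CPM with BimS debris and at most 252.5 CPM with RIPK3 debris. Of them, Tcf4 fell in cDC1s by 0.23 with either debris (adjusted p = 0.0485 and 0.0487), and in cDC2s Runx2 rose with BimS debris by 0.45 (adjusted p = 0.0253) and Bst2 fell with RIPK3 debris by 0.55 (adjusted p = 0.0241). B cell markers summed in cDC1s to 19.9 to 25.9 CPM with WT medium, 14.1 to 20.2 CPM with BimS debris and 16.6 to 23.0 CPM with RIPK3 debris. In cDC2s their sum was 35.4 to 41.5 CPM with WT medium, 27.4 to 33.2 CPM with BimS debris and 46.4 to 47.0 CPM with RIPK3 debris. T and NK cell markers summed to 4.94 CPM or less in every sample, and erythroid markers to 1.79 CPM or less. Of these lists, Hbb-bt and Cd5 rose with BimS debris in cDC1s (1.94 and 1.26, adjusted p = 0.00573 and 0.0336), Cd3g and Ighm fell with it in cDC2s (-2.15 and -0.37, adjusted p = 0.0341 and 0.0342), and Ighm exceeded its BimS level with RIPK3 debris in cDC2s (0.68, adjusted p = 0.00708). The part of any of these cells in the results was not tested.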

How the data were processed

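Polyadenylated RNA of 17 sorted samples had been sequenced. The authors trimmed reads with SeqPurge, aligned them with STAR (2.7.10a) to GRCm39 and made counts per gene with gensum (0.2.1), and these raw counts were deposited as whole numbers and used here. The authors' log2 normalized table was not used. Of 31239 rows, 148 without an identifier (at most 0.0366% of counts) were left out, and 30854 of 31091 identifiers matched GENCODE M39. Depth was 16095159 to 21645289 counts, and the biological coefficient of variation was 5.55% in cDC1s, 9.58% in cDC2s and 7.59% over all samples.

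A gene was tested where 50% or more of the fitted samples had a count above 0 (19513 in cDC1s, 19239 in cDC2s, 19082 in all) with the robust quasi-likelihood test of edgeR (4.0.16) in R (4.3.3), TMM normalization and Benjamini-Hochberg adjustment at 0.05. The authors had used limma on log2 counts, kept here as an alternative (limma 3.58.1). Other alternatives were DESeq2 (1.42.0), RLE factors, filterByExpr, no filter, limma on CPM, leaving out each sample, and a replicate block. Samples with the same replicate number deviated together (correlation over 0.1 in 9 of 9 pairs within cDC1s and 7 of 7 within cDC2s, against 1 of 18 and 3 of 14 pairs with different numbers), though the labels do not say what a number marks. Between the cell types this held for 5 of 8 same-number pairs with the same medium and for 14 of 16 with other media. With different numbers it held for 2 of 16 and 3 of 32 pairs. The main fits, those between cell types and of interactions included, did not model this, and the replicate block did.

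Members and lists were chosen with earlier results of these data known. All members are accounted for, sample values are given for those called against WT medium, and full statistics for the 12 with the lowest adjusted p. From each further list only some of the genes with a low adjusted p were named. The result of 1 gene of these lists is not reported here.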

Additional observations from a re-analysis of the deposited data

Results flagged for a closer look

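The response of Pfkfb3 differed between the cell types by a test of the difference itself, with an interaction (cDC1 minus cDC2) of -0.93 for BimS debris (edgeR, adjusted p = 2.02e-06) and of -1.07 for RIPK3 debris (adjusted p = 3.86e-07). All 6 debris samples of cDC1s lay under their WT samples and all 5 of cDC2s lay over theirs, and both calls held in 24 of 24 alternatives.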

How the results depend on the processing

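No called value changed sign under any alternative run. Member counts moved by over 1.5 times in few settings: limma on unscaled log2 counts gave 9 with BimS debris in cDC1s, leaving out the low-count filter gave 2 (cDC1s) and 1 (cDC2s) for RIPK3 against BimS debris and 2 for the BimS interaction, and the replicate block gave 4 and 8 for RIPK3 against BimS debris and, in cDC2s, 16 and 15 for BimS and RIPK3 debris against WT medium. Of these settings, the share of all genes called is given above for the replicate block only. The block ended no call of a member. Leaving out single samples gave 0 to 1 for RIPK3 against BimS debris in cDC1s (Hk3 without cDC1 BimS replicate 2 or cDC1 RIPK3 replicate 3, Slc16a3 without cDC1 RIPK3 replicate 2) and 1 to 3 for the BimS interaction, the 3 being Pfkfb3 with Slc2a6 (1.04) and Hk3 (1.29) without cDC2 WT replicate 1. Of 76 calls, 21 were lost with limma on unscaled counts, which moved the median of all genes by up to -0.17, 5 with DESeq2 and 4 with RLE factors. Why calls moved was not tested. With 2 cDC2 samples of RIPK3 debris, leaving out either assumes that the other varies like the remaining groups.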
